A study of Mus musculus with 3 samples.

Results

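The miR-29 family was followed by small RNA deep-sequencing in mouse TAG1 ES cells whose Smad2/3 signaling was blocked or induced. Its members were taken by name, as every listed arm of miR-29a, miR-29b and miR-29c, and 5 of the 693 listed mature miRNAs belonged to it. These were the 3p arms miR-29a-3p, miR-29b-3p and miR-29c-3p and the 5p arms miR-29a-5p and miR-29c-5p. The 5p arms miR-29b-1-5p and miR-29b-2-5p were not listed, and the methods state that a miRNA needed 10 or more reads over the 3 libraries.

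TAG1 cells carry a doxycycline-inducible, constitutively active Alk4* receptor, so that doxycycline (Dox) leads to phosphorylation of Smad2/3, and all 3 libraries came from this 1 line. The Control library came from untreated cells grown in high serum (FBS), which contains TGF-β ligands. The SB library came from cells treated for 16 hrs with 30 µM of the inhibitor SB-431542 (written SB-431541 in the sample labels), which blocks the phosphorylation of Smad2/3. The Dox library came from cells given the same 16 hrs of SB and then 12 hrs of 1 µg/µl Dox. LIF was present in all cultures. SB and Dox cells were in Knockout Serum Replacement in place of FBS, so the medium and the treatment cannot be told apart in any comparison with Control. Dox and SB cells differed in 12 hrs of further culture, in Dox itself and in Alk4*, which cannot be told apart in Dox over SB. Each condition had 1 library, which leaves the variation between cultures unmeasured, and no test between conditions was possible. All intervals below are 95% exact intervals that cover counting error only.

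miR-29 miRNAs are known for lowering the mRNAs of collagens and other matrix proteins and of the de novo DNA methyltransferases. In fibroblasts, TGF-β signaling is known to reduce them, and the loss is tied to fibrosis. A miRNA finds its targets mostly through its seed, bases 2 to 8 from the 5′ end, and 2 hairpin pairs in the mouse genome give rise to the family. The 3p arm is the guide strand, which is loaded into the silencing complex, while the 5p arm is mostly discarded.

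The 3p arms are shown because their seed defines the family and their few differing bases decide how reads could be told apart. The sequences are from RefSeq (GRCm38.p6), 5′ to 3′, with the seed in capitals:
miR-29a-3p: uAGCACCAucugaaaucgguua
miR-29b-3p: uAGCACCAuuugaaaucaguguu
miR-29c-3p: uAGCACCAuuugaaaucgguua
The same seed was found in 3 of the 1679 mature miRNAs of the RefSeq table, and these were the 3p arms above. Of the listed miRNAs, 516 matched this table by name, the 5 members among them. With positions counted from 1 at the 5′ end, miR-29a-3p and miR-29c-3p differ by C10U alone. From miR-29b-3p to miR-29c-3p the changes are A18G, G21U and U22A, and miR-29b-3p has 23 bases where the others have 22. miR-29b-3p ends in AGUGUU, known as a nuclear localization element of miR-29b, and the other 3p arms do not. miR-29b-3p and miR-29c-3p share their first 17 bases. Reads longer than 16 bases were kept, so a read of just these 17 bases fits both, and by the closest-length rule of the methods it would be assigned to miR-29c-3p. The number of such reads is unknown from the summed values, and the libraries were made from RNA of 20 to 30 nucleotides.

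The 5p arms that were listed differ from each other in their seeds, again in capitals:
miR-29a-5p: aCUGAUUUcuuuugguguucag
miR-29c-5p: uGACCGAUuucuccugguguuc

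On GRCm38, the hairpins of miR-29a (31062660 to 31062747) and miR-29b-1 (31063023 to 31063093) lie on the − strand of chromosome 6 with 275 bases between them. The annotation places the miR-29a hairpin in no other gene, and that of miR-29b-1 overlaps an exon of the long noncoding RNA Gm27019. The hairpins of miR-29b-2 (195037040 to 195037120) and miR-29c (195037547 to 195037634) lie on the + strand of chromosome 1 with 426 bases between them. Both overlap an exon of the noncoding transcript A330023F24Rik and, on the opposite strand, an exon of Cd46, which encodes a complement regulator. Both miR-29b hairpins give the same 3p arm, so miR-29b-3p reads from chromosomes 1 and 6 cannot be told apart.

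Levels were deposited as rpm, the reads of a miRNA per 1000000 reads of the library that the authors counted. The values were whole multiples of the worth of 1 read, from which the number of reads each library had been divided by followed, between 9895513 and 11354692. These divisors were lower than the total reads that the study states for each library, and what was left out is not given in the sources used here. Reads on listed miRNAs made up 28.3% of the divisor in Control, 24.1% in SB and 33.4% in Dox. The median log2 ratio of all listed miRNAs was −0.19 for SB over Control, 0.38 for Dox over SB and 0.19 for Dox over Control. Scaling by the reads on listed miRNAs instead gave medians of 0.038, −0.090 and −0.049, so a ratio of a single miRNA is best read against them.

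All 3 guide strands of the miR-29 family were highest in the SB library. In the rpm as deposited, they were nearly back at their Control level in the Dox library. miR-29a-3p was 2.57-fold and miR-29b-3p 2.61-fold higher in SB than in Control, whereas miR-29c-3p was 1.33-fold higher. Together the 3p arms had 1352 rpm in Control (1330 to 1374), 3418 rpm in SB (3384 to 3452) and 1303 rpm in Dox (1281 to 1326). This is a ratio of 2.53 (2.48 to 2.58) for SB over Control. The fall from SB to Dox was 2.62-fold (2.57 to 2.68). Of all reads on listed miRNAs, the 3p arms took 0.477% in Control, 1.42% in SB and 0.390% in Dox.

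miR-29a-3p, the dominant member, had 1251 rpm in Control (13710 reads), 3212 rpm in SB (36466 reads) and 1206 rpm in Dox (11937 reads). It was the 45th most abundant listed miRNA in Control, number 18 in SB and number 48 in Dox. Its log2 ratio was 1.36 (1.33 to 1.39) for SB over Control and −1.41 (−1.44 to −1.38) for Dox over SB. Among the 291 miRNAs with at least 100 reads in every library, 10 had a higher log2 ratio of SB over Control and 12 had a lower one of Dox over SB.

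miR-29b-3p, the member that comes from both hairpin pairs, had 56.9 rpm in Control (623 reads), 148.3 rpm in SB (1684 reads) and 55.0 rpm in Dox (544 reads). The SB level stood apart from the others, whose counting intervals overlapped. Its log2 ratios were 1.38 (1.2495 to 1.52) for SB over Control and −1.43 (−1.57 to −1.29) for Dox over SB.

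miR-29c-3p, the member made from chromosome 1 alone, had 43.6 rpm in Control (478 reads), 57.9 rpm in SB (658 reads) and 42.0 rpm in Dox (416 reads). SB was again the highest, but by a much smaller step. The log2 ratio was 0.41 (0.24 to 0.58) for SB over Control and −0.46 (−0.64 to −0.28) for Dox over SB. Of the 291 miRNAs with at least 100 reads in every library, 42 had a higher log2 ratio than miR-29c-3p for SB over Control and 53 had a lower one for Dox over SB.

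**Figure D1:**
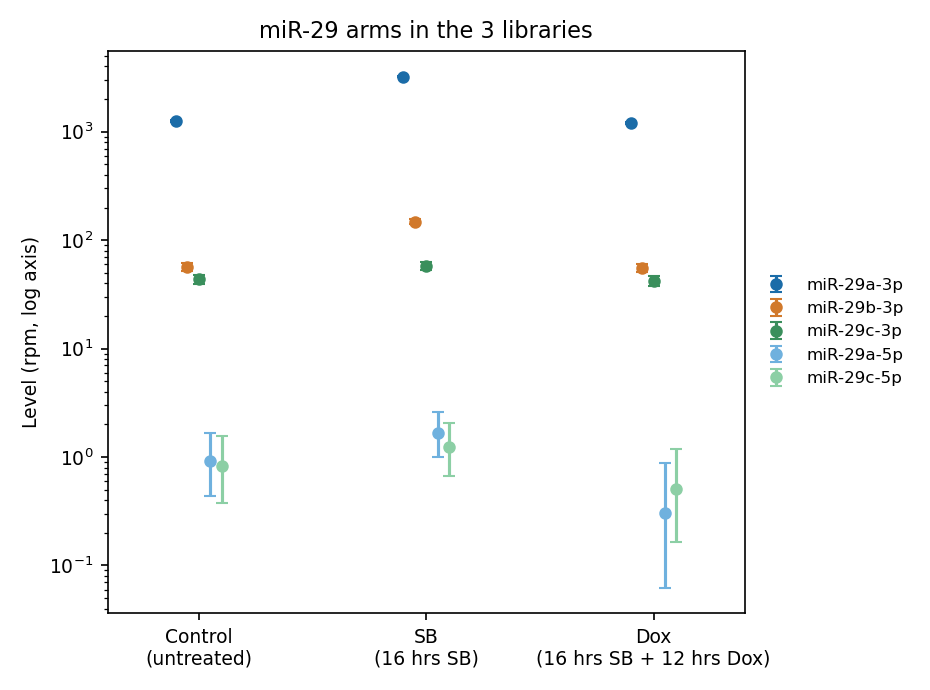
Level of each listed miR-29 arm in rpm (log axis) in the Control, SB and Dox libraries, 1 point per library, with bars for the 95% exact Poisson interval of the read number. The 3p arms are all highest in SB, miR-29a-3p at 3212 rpm, and the 5p arms stay under 2 rpm.

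Each pair of libraries was then read with the size limits of the study's selection, a log2 ratio of 0.32 or more in size and a Z-score outside the central 95% of a normal distribution. The study set these limits in 1 direction, lower in SB than in Control and higher in Dox than in SB, and here they were applied in both directions and also to Dox over Control. No member passed in the direction of the study. The Z-score compares the reads of 2 libraries and not the conditions. All 3 of the 3p arms were higher in SB than in Control, which 15.3% of the 693 listed miRNAs were. Neither 5p arm met the limits and no member was lower, against 30.2% of the listed miRNAs that were lower. In Dox over SB, 4 of the 5 members were lower, against 17.9% of the listed miRNAs, and none was higher, against 41.7%. These were the 3p arms and miR-29a-5p. The shares of all listed miRNAs depend on the scaling: with scaling to reads on listed miRNAs, 165 were higher and 144 lower in SB over Control (106 and 209 in the rpm as deposited), and 163 were higher and 218 lower in Dox over SB (289 and 124). The 3p arms were thus both higher in SB than in Control and lower in Dox than in SB, the reverse of the profile the study selected, as were 9.67% of the listed miRNAs. With a fold change of 2 and the same Z-score limit, 7.07% of the listed miRNAs were higher in SB than in Control. Of the listed miRNAs, 9.67% were lower in Dox than in SB, and 4.47% met both. miR-29a-3p and miR-29b-3p met both and miR-29c-3p met neither. Scaling to miR-26a-5p, the qPCR reference of the study, took miR-29c-3p under the fold change for SB over Control, with a log2 ratio of 0.17. The comparisons share the SB library, so the fall in the second is not independent of the rise in the first.

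Control and Dox are both conditions with active Smad2/3 signaling, in high serum in the first and through Alk4* in the second. The log2 ratio of Dox over Control was −0.05 for miR-29a-3p (−0.09 to −0.02), −0.05 for miR-29b-3p (−0.22 to 0.12) and −0.05 for miR-29c-3p (−0.25 to 0.14). No member met the limits, while 30.6% of the listed miRNAs were higher and 19.8% lower in Dox than in Control. The near equality of the libraries held for the rpm as deposited, in which the median of all listed miRNAs was 0.19. Over the 5 other scalings the log2 ratio of all 3p arms together lay between −0.35 with scaling to miR-26a-5p and −0.13 with quantile normalization. When libraries were scaled to miR-26a-5p, all 3 of the 3p arms met the limits as lower in Dox, as did 217 of the 693 listed miRNAs. Under quantile normalization, 1 of the 3p arms did so, miR-29c-3p, as did 168 of the 693.

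**Figure D2:**
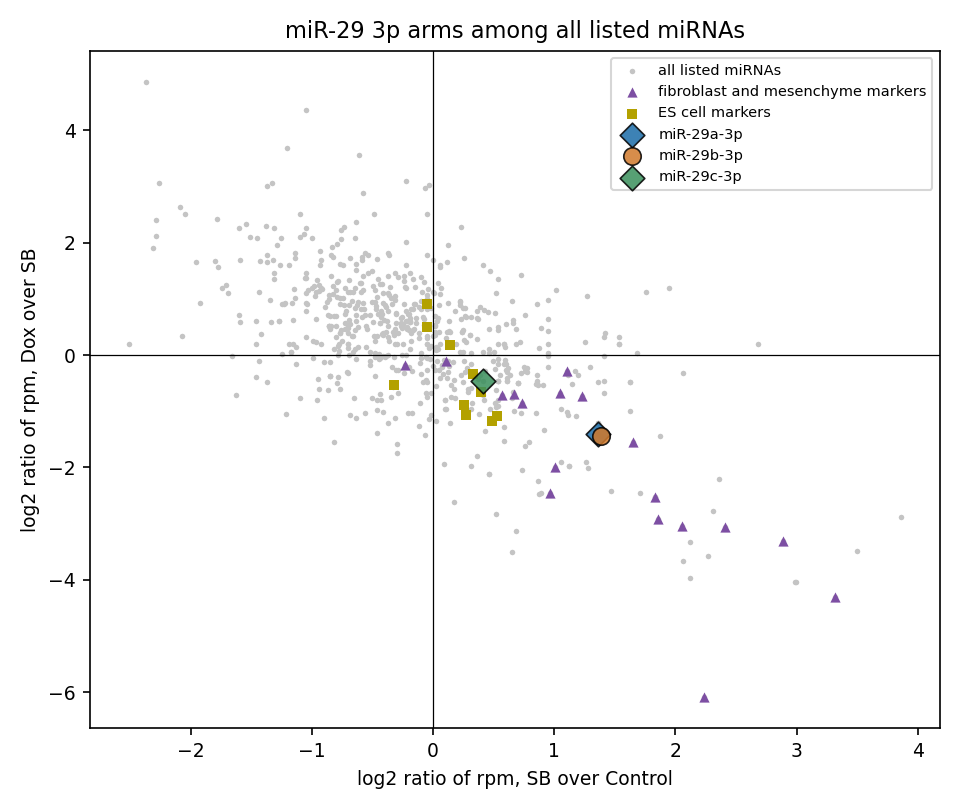
Log2 ratio of rpm of SB over Control (x axis) against Dox over SB (y axis) for all listed miRNAs in grey, with fibroblast and mesenchyme markers as triangles, ES cell markers (3p arms) as squares and the miR-29 3p arms as large symbols. Both axes contain the SB library, so a slope from upper left to lower right arises in part by construction. miR-29a-3p and miR-29b-3p lie on each other at 1.36 and 1.38 on the x axis, and miR-29c-3p lies nearer to the origin at 0.41.

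Proportions within a library do not change when the whole library is scaled by a common factor, so the members were next compared inside each library. Quantile normalization is not such a factor, and its values are given in the closing section. The proportions are ratios of read numbers and not of molecules. There were 22.0 reads of miR-29a-3p per read of miR-29b-3p in Control (20.3 to 23.9), 21.7 in SB (20.6 to 22.8) and 21.9 in Dox (20.1 to 23.96). The ratio of these members, whose hairpins miR-29a and miR-29b-1 are neighbours on chromosome 6, thus stayed within its counting error across the libraries. The log2 ratio of miR-29b-3p minus that of miR-29a-3p was 0.02 (−0.11 to 0.16) for SB over Control and −0.02 (−0.16 to 0.12) for Dox over SB.

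Against miR-29c-3p the proportions moved. There were 28.7 reads of miR-29a-3p per read of miR-29c-3p in Control (26.2 to 31.5), 55.4 in SB (51.3 to 60.0) and 28.7 in Dox (26.0 to 31.7). The SB interval lay wholly above the other intervals. miR-29c-3p was 3.23% of the 3p reads of the family in Control (2.95 to 3.52), 1.70% in SB (1.57 to 1.83) and 3.23% in Dox (2.93 to 3.55). The log2 ratio of miR-29c-3p minus that of miR-29a-3p was −0.95 (−1.12 to −0.77) for SB over Control and 0.95 (0.77 to 1.13) for Dox over SB. The difference in Dox over Control was −0.00064 (−0.20 to 0.20).

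The proportion of miR-29b-3p to miR-29c-3p moved as well, though miR-29b-3p reads come from either chromosome and the hairpins on chromosome 1 were not measured apart. The reads of miR-29b-3p per read of miR-29c-3p were 1.30 in Control (1.16 to 1.47), 2.56 in SB (2.34 to 2.80) and 1.31 in Dox (1.15 to 1.49). The log2 ratio of miR-29c-3p minus that of miR-29b-3p was −0.97 (−1.19 to −0.75) for SB over Control. Reads of 17 bases that fit both could shift this ratio, but not that of miR-29a-3p to the sum of both. The latter was 12.5 in Control (11.7 to 13.3), 15.6 in SB (14.9 to 16.2) and 12.4 in Dox (11.6 to 13.3), again higher in SB alone.

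**Figure D3:**
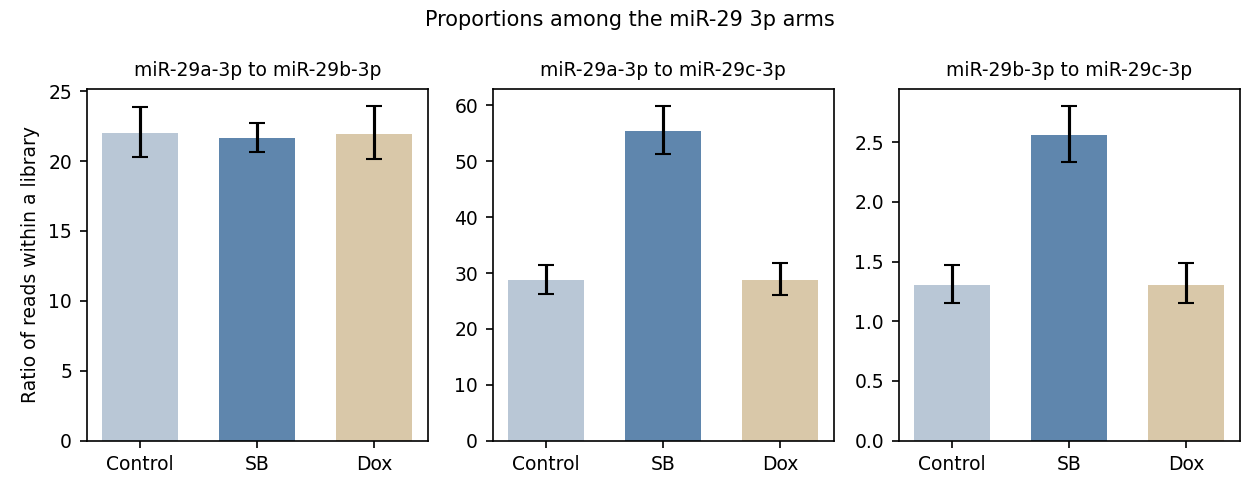
Reads of miR-29a-3p per read of miR-29b-3p, of miR-29a-3p per read of miR-29c-3p and of miR-29b-3p per read of miR-29c-3p in the Control, SB and Dox libraries, with 95% exact intervals for counting error. The first ratio stays near 22, and both ratios to miR-29c-3p are higher in SB than in Control and Dox.

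Measured from the mean of Control and Dox, the SB library held 1983 rpm more of miR-29a-3p, 92.4 rpm more of miR-29b-3p and 15.1 rpm more of miR-29c-3p. In the rpm as deposited, the added level was thus 94.9% miR-29a-3p, 4.42% miR-29b-3p and 0.723% miR-29c-3p. These shares subtract levels across libraries, so unlike the proportions above they depend on the factor each library is scaled by. No interval was computed for them. In the mean of Control and Dox the shares of these members, in the same order, were 92.6%, 4.21% and 3.23%. The share of miR-29c-3p was thus lower in the added level, and those of miR-29a-3p and miR-29b-3p were higher.

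The 5p arms were rare. miR-29a-5p had 10 reads in Control (0.913 rpm), 19 in SB (1.67 rpm) and 3 in Dox (0.303 rpm). Its log2 ratio of Dox over SB was −2.46 (−4.86 to −0.70), and that of SB over Control was 0.87 (−0.30 to 2.14), which includes 0. miR-29c-5p had 9, 14 and 5 reads in the same order (0.821, 1.23 and 0.505 rpm), and its intervals included 0 in every comparison. Both were highest in SB, but a rise from Control was not detectable at this depth.

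The hairpins differed in how many 5p reads they left. Per 1000 reads of its 3p arm, miR-29a had 0.729 reads of its 5p arm in Control (0.350 to 1.34), 0.521 in SB (0.314 to 0.814) and 0.251 in Dox (0.0518 to 0.735). For miR-29c these were 18.8 (8.56 to 36.04), 21.3 (11.6 to 35.96) and 12.0 (3.88 to 28.3). The intervals of both hairpins were apart in every library, while within a hairpin the libraries overlapped.

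The likeness of other miRNAs to the family was measured by the distance between pairs of log2 ratios (SB over Control, Dox over SB), over the 3 libraries and 288 other miRNAs with at least 100 reads in each. The closest was miR-34b-5p (distance 0.34), a member of the p53-induced miR-34 family, with 15.2 rpm in Control, 34.3 rpm in SB and 16.1 rpm in Dox. The next was miR-31-5p (0.35), which is abundant in fibroblasts, with 78.2, 245.8 and 84.0 rpm. let-7f-5p (0.39) had 5185, 11217 and 5331 rpm and let-7d-5p (0.44) had 368.2, 792.2 and 392.4 rpm, both of a family known to rise on differentiation. The fifth, miR-34c-5p (0.67), had 502.8, 1179 and 708.7 rpm. miR-29c-3p, at a distance of 1.31 from the family sum, was farther away than any of these 5.

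Most fibroblast and mesenchyme markers moved with the family in SB over Control and in Dox over SB. miR-29 is abundant in fibroblasts, and a list of 18 fibroblast and mesenchyme miRNAs was placed beside it. The list was written with earlier results of these data known, so its counts are not independent of them. It also holds miR-31-5p and miR-34c-5p, which are among the nearest patterns above. All 18 were listed and none was at 0, though miR-214-3p, a marker of mesenchyme, was down to 1 read in Dox. Their summed level was 4924 rpm in Control, 9756 rpm in SB and 5554 rpm in Dox. In SB over Control 16 were higher and 0 lower, against 15.3% and 30.2% of all listed miRNAs, with a median log2 ratio of 1.17 (0.92 to 1.40 over 5 other scalings). In Dox over SB 15 were lower and 0 higher, against 17.9% and 41.7%, with a median of −1.77 (−2.24 to −1.83). The most abundant was miR-21-5p, a miRNA of activated fibroblasts, with 1159, 2486 and 2041 rpm, and miR-199a-3p, a marker of mesenchyme, had 547.2, 1943 and 336.5 rpm. In Dox over Control 3 of the list were higher and 8 lower, against 30.6% and 19.8% of all listed miRNAs, while no miR-29 member was called. The median of the list was −0.41 there, while the log2 ratio of its sum was 0.17 in the rpm as deposited. The methods do not say whether the sequenced cells grew on feeder fibroblasts, and name feeder cells for another assay of the study. In a bulk sample, more cells of a type and more RNA per cell cannot be told apart, and the part of these cells in the levels of miR-29 was not tested.

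ES cell miRNAs were abundant in all 3 libraries. A list of 10 marker miRNAs from the ES cell-specific miR-290 and miR-302 clusters held 3p arms alone. All 10 were listed, and the most abundant of them, miR-293-3p, had 19525 rpm in Control, 18793 rpm in SB and 26448 rpm in Dox. Their sum was 35187, 38342 and 41096 rpm. In SB over Control 4 were higher and 0 lower, against 15.3% and 30.2% of all listed miRNAs, with a median log2 ratio of 0.26 (0.021 to 0.49 over the other scalings). In Dox over SB 2 were higher and 7 lower, against 41.7% and 17.9%, with a median of −0.60 (−1.07 to −0.66), although the log2 ratio of the sum was 0.10 in the rpm as deposited. The 5p arms of these clusters went the other way, which was also the direction of the larger share of all listed miRNAs in the rpm as deposited. Of the 11 that were listed, 0 were higher and 8 lower in SB than in Control, against 15.3% and 30.2% of all listed miRNAs. Their median log2 ratio was −0.64 (−0.88 to −0.41 over the other scalings). In Dox over SB 8 were higher and 0 lower, against 41.7% and 17.9%. The most abundant, miR-290-5p, had 35638 rpm in Control, 18094 rpm in SB and 37406 rpm in Dox. Over all 23 listed arms of the clusters the sum was 81886 rpm in Control, 65207 rpm in SB and 93843 rpm in Dox. Without miR-290-5p the sum in the rpm as deposited was no longer lower in SB than in Control, though still lower than in Dox. The other 22 arms had 46249 rpm in Control, 47113 rpm in SB and 56438 rpm in Dox. Over the other scalings the log2 ratio of their sum ran from −0.22 to 0.28 for SB over Control. It ran from −0.21 to 0.20 for Dox over SB, so neither direction held under all scalings. The part of the ES cell share in the levels of miR-29 was not tested.

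Lists of miRNAs known from other cell types to fall or to rise with TGF-β signaling gave the context of the pathway. Of 12 known to fall besides miR-29, 3 were higher and 6 lower in SB than in Control, and 8 were higher and 2 lower in Dox than in SB. Of all listed miRNAs, 15.3% were higher and 30.2% lower in the first comparison, and 41.7% higher and 17.9% lower in the second. The median log2 ratios of the list were −0.34 (−0.58 to −0.11 over the other scalings) and 0.75 (0.28 to 0.69), beside −0.19 and 0.38 for all listed miRNAs, although the sum of the list gave 0.10 for SB over Control in the rpm as deposited. miR-200a-3p, which holds back the epithelial-to-mesenchymal transition, had 389.9, 232.3 and 709.3 rpm, and miR-30d-5p, the most abundant of the list, had 681.9, 606.5 and 1073 rpm. miR-30a-5p, the next most abundant, had 630.8, 720.8 and 827.2 rpm and was called in neither comparison. The 3 that were higher in SB than in Control were let-7d-5p, described above, miR-30b-5p (log2 ratio 0.51) and miR-30c-5p (0.49), and let-7d-5p and miR-30b-5p were also lower in Dox than in SB.

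Of 12 miRNAs known to rise with TGF-β signaling, 7 were higher and 3 lower in SB than in Control, and 4 were higher and 6 lower in Dox than in SB, to be read against the same shares of all listed miRNAs. The median log2 ratios were 0.56 (0.31 to 0.79 over the other scalings) and −0.48 (−0.95 to −0.54), while the sums gave 0.12 and 0.24 in the rpm as deposited. This list holds 5 of the fibroblast and mesenchyme markers, and it holds miR-382-5p, which the study selected on these libraries and which had 1922, 1045 and 2009 rpm.

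The direction of the 3p arms was examined under 5 other scalings of the libraries. For SB over Control the log2 ratio of all 3p arms together lay between 1.10 with scaling to miR-26a-5p and 1.58 with quantile normalization. For Dox over SB it lay between −1.86 with scaling to reads on listed miRNAs and −1.45 with scaling to miR-26a-5p. miR-26a-5p itself had 647.2 rpm in Control, 765.9 rpm in SB and 797.7 rpm in Dox.

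**Figure D4:**
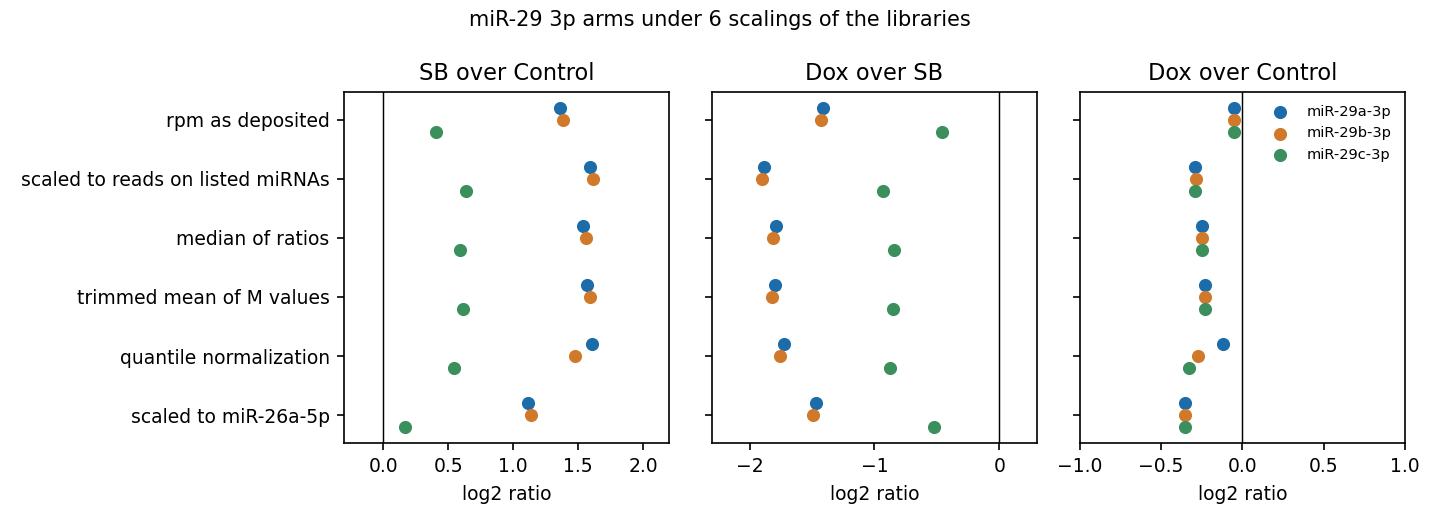
Log2 ratio of each miR-29 3p arm in the 3 comparisons (panels; x axis) under the rpm as deposited and 5 other scalings of the libraries (rows), 1 point per arm. In SB over Control and Dox over SB the points keep their side of 0 and miR-29c-3p stays closest to 0, and in Dox over Control the points lie at or below 0.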

How the data were processed

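Small RNA libraries from TAG1 ES cells (Control, SB and Dox, 1 each) were sequenced on the Illumina GAII, and 2 runs per library were pooled. According to the methods, the authors clipped adaptors with the FASTX tool kit and discarded reads of 16 bases or fewer. Bowtie (version 0.12.7) then placed the rest, with no mismatch, on the mature miRNAs of miRBase (release 18), and what stayed unplaced on its hairpins. Reads that fitted several miRNAs went to the one of closest length, or to each. The deposited files give rpm, which the methods describe as normalized by the authors to the total reads of each library, although the divisors recovered here were lower than the stated totals. No genome build was used for these values. Positions and sequences were taken from RefSeq and GENCODE (GRCm38).

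Read numbers were recovered here as whole multiples of 1 step per library, and all 2079 values were whole within 0.01 reads. No count model was fitted, because each condition had 1 library. Ratios of rpm were taken without a pseudocount and given on the log2 scale, with Clopper-Pearson intervals from the read numbers. Poisson intervals were used for levels, and exact conditional intervals of the odds ratio for differences between members. Reads are not independent molecules, so intervals cover counting error only. The Z-score is that of 2 proportions with the recovered totals. A miRNA was called when both its log2 ratio and its Z-score met the size limits given above, in either direction. The named miRNAs were the members, miR-26a-5p, the 5 nearest patterns, and the most abundant of each context list (up to 4), besides miR-214-3p, miR-30b-5p, miR-30c-5p and miR-290-5p, which were chosen after their values were seen, as were the 5p arms of the ES cell clusters. Members, lists and tests were chosen with earlier results of these data known. Scripts were run in Python 3.11.15 with SciPy 1.17.1 and were tested on simulated data. The alternatives were other scalings, a pseudocount of 1 rpm, other fold changes and a minimum of 100 reads.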

Additional observations from a re-analysis of the deposited data

How the results depend on the processing

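The log2 ratio of the 3p arms together kept its direction in each comparison under the 5 scalings and the pseudocount of 1 rpm that were run. In the order of reads on listed miRNAs, median of ratios, trimmed mean of M values, quantile normalization and miR-26a-5p, it was 1.57, 1.52, 1.54, 1.58 and 1.10 for SB over Control. In the same order it was −1.86, −1.77, −1.78, −1.71 and −1.45 for Dox over SB, and −0.29, −0.25, −0.23, −0.13 and −0.35 for Dox over Control. Under quantile normalization, the only scaling run that can move the members against each other, the log2 ratio of miR-29c-3p minus that of miR-29a-3p was −1.06 for SB over Control, 0.85 for Dox over SB and −0.21 for Dox over Control. That of miR-29b-3p minus miR-29a-3p was −0.13, −0.03 and −0.15. Of all listed miRNAs, 315 were called in SB over Control, 477 with the fold change alone and 116 with a fold change of 2 and the Z-score limit. A fold change of 2 with that limit gave 221 in place of 413 for Dox over SB and 150 in place of 349 for Dox over Control. The share of these calls that were higher was 33.7% in SB over Control (17.96% to 53.4% over the scalings), 70.0% in Dox over SB (42.8% to 65.9%) and 60.7% in Dox over Control (38% to 50.1%). Depth limits the 5p arms, which had at most 19 reads. No library could be left out and no paired analysis was possible because each condition had 1 library.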
